A study of Mus musculus with 2 samples.

Results

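The 10 genes described here belong to the unfolded protein response and the integrated stress response. They were chosen by name as the gene rows of both count matrices that carry the symbols Xbp1, Hspa5, Hsp90b1, Pdia4, Dnajb9, Herpud1, Atf4, Ddit3, Ppp1r15a and Calr. All 10 of them were found among the 32285 genes of the tables. Ddit3 had a further entry with 0 unique molecular identifiers (UMIs) in both libraries, and the other entry was used. Every member was detected, with total counts from 1826 UMIs for Ddit3 to 25643 UMIs for Hspa5 in the wild-type library.

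The unfolded protein response adjusts the folding capacity of the endoplasmic reticulum (ER) to its load. 3 membrane sensors start it. IRE1 splices Xbp1 mRNA to yield an active transcription factor, ATF6 is cut in the Golgi to release another, and PERK phosphorylates the translation factor eIF2α. The last step is shared with kinases that sense amino acid shortage, haem shortage and double-stranded RNA, and together these arms form the integrated stress response. Phosphorylated eIF2α lowers general protein synthesis while the Atf4 mRNA is translated more, and ATF4 induces CHOP (gene Ddit3) and GADD34 (gene Ppp1r15a). Plasma cells, which secrete antibody, need XBP1 for their large ER. Splicing of Xbp1, translation of Atf4 and cleavage of ATF6 cannot be read from counts of transcript ends, so the values below are mRNA levels alone.

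The study took immune cells from gum tissue (gingiva) of C57BL/6 mice, in a study of experimental periodontitis, and sequenced them singly. A single library came from WT animals and a single library from animals with the genotype label Otud1-/-. The number of animals pooled, their age and sex, whether gums of both groups were treated alike, and which stretch of Otud1 was deleted are not given in the sources used here. With 1 library per genotype there is no replicate, so no test between genotypes was possible. Intervals below are 95% intervals that cover counting error only, and differences between the libraries are differences between 2 libraries, not between genotypes.

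Otud1 itself had 834 UMIs in the WT library and 1456 UMIs in the library labelled Otud1-/-, or 18.6 and 33.0 CPM (the UMIs of a gene scaled to one fixed total of all UMIs). It was thus higher where the label gives a loss, and counts of transcript ends may lie outside the deleted part, so Otud1 does not check the label. Xist, expressed in female cells, had 14449 and 5 UMIs and Y-linked genes 6696 and 10368 UMIs, so the WT library held cells of both sexes and the other almost no female cells. Mitochondrial and gene-number limits removed 3.75% of WT barcodes and 14.5% of the others. After doublet removal 11414 WT cells with a median of 2153.5 UMIs remained, beside 6486 cells with a median of 4213.5 UMIs, and the libraries shared 37 barcodes. Genotype, sex, depth and handling of the library cannot be told apart.

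Sequences upstream of the members were searched for exact matches of the classical ER stress element. The ER stress element (ERSE: CCAAT, 9 free bases, then CCACG) is the known target of ATF6 and XBP1 together with NF-Y. It was searched on both strands in RefSeq promoters (GRCm38.p6) that run from 250 bases before to 50 bases after each start site. It matched 39 of 32851 promoters (0.119%), and 3 of the 10 members, all with a promoter in the table, had it. The shorter ERSE-II (ATTGG, 1 free base, then CCACG) matched 0.0365% of promoters and, among the members, Herpud1. The windows below are printed 5′ to 3′ on the gene's own strand, with the match in capitals.
Hspa5, chr2:34772020-34772048, plus strand, match from -65 to -47: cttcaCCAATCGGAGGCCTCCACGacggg
Hsp90b1, chr10:86705633-86705661, minus strand, match from -212 to -194: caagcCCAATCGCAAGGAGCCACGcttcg
Hsp90b1, chr10:86705528-86705556, minus strand, reverse match from -107 to -89: gagtgCGTGGTGAGGCACGATTGGtgagt
Calr, chr8:84847070-84847098, minus strand, reverse match from -162 to -144: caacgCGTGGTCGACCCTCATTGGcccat
Herpud1, ERSE-II, chr8:94386368-94386396, plus strand, match from -52 to -42: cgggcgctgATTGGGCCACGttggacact
Herpud1, CARE, chr8:94386306-94386335, plus strand, reverse match from -112 to -105: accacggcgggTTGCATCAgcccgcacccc
The last window holds the element read by ATF4 and C/EBP proteins (CARE, TGATGNAA), which matched 3.97% of promoters. The XBP1-type element TGACGTGG (UPRE) matched 0.676% of promoters and 0 members. These are matches of letters and not measured binding sites. Elements outside this window or with other letters were not searched, so a member without a match may still carry one. The genes with an ERSE or ERSE-II match (Hspa5, Hsp90b1, Calr and Herpud1) are all ER folding or degradation genes. Pdia4 and Dnajb9, of the same kind, had no such match. The levels of all members by cell class follow.

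Cells were grouped into classes by clustering without the 10 genes, and each class was named from its markers with the ending "-like". Levels are the summed UMIs of a class as CPM of its total. The 164 WT and 75 other plasma-like cells all carried Jchain, the antibody joining chain, and immunoglobulin genes made up 43.7% and 53.7% of their summed UMIs. All CPM of plasma-like cells are therefore lowered by their immunoglobulin share. Jchain was also among the markers that named the class. Monocyte/macrophage markers summed to 3268 and 2102 CPM in plasma-like cells, and B cell markers outside the immunoglobulin genes to 1790 and 1897 CPM. The part of RNA from other cells in the plasma-like levels was not tested. No class lacks these genes by definition, so no background level from free RNA could be read from an empty class.

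Xbp1 and the chaperone Pdia4 had the highest ratios of plasma-like to other cells. Xbp1 encodes the transcription factor that builds secretory capacity (chromosome 11, positions 5520659 to 5525893 of mm10). In plasma-like cells it stood at 963 CPM (896 to 1034, 771 UMIs) in the WT library and at 993 CPM (930 to 1059, 916 UMIs) in the library labelled Otud1-/-. All other kept cells were at 94.1 and 77.6 CPM. The ratio was 10.2 (9.44 to 11.1) and 12.7. Without doublet removal, where the class held 697 and 280 cells, it was 3.49 and 5.04, and with immunoglobulin UMIs left out of the totals 17.9 and 27.3. Plasmacytoid dendritic-like cells followed at 410 CPM (378 to 443) and 476 CPM (426 to 530). The intervals of these classes did not overlap in either library. Lower down, the order blurred: in the WT library mast cell/basophil-like cells had 136 CPM, and their interval met that of the next classes. B-like cells, the precursors of plasma cells, were near the bottom at 43.0 and 42.6 CPM.

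Of the ER chaperones, Hsp90b1 and Pdia4 stood far above the other cells in plasma-like cells of both libraries on every scale tried. Hsp90b1 encodes GRP94, the ER form of HSP90 (chromosome 10, positions 86690209 to 86705509). Its level in plasma-like cells was 3347 CPM (3221 to 3476) and 2474 CPM (2373 to 2577), against 419 and 325 CPM in the rest, a ratio of 7.98 and 7.60. Pdia4, a disulfide isomerase (chromosome 6, positions 47796141 to 47813430), had 468 CPM (422 to 518) and 390 CPM (351 to 433), against 45.1 and 34.9 CPM, a log2 ratio of 3.36 and 3.46. Without doublet removal the log2 ratios were 1.81 and 1.65 for Hsp90b1 and 2.05 and 2.10 for Pdia4. Both genes were highest in plasma-like cells, with no overlap of the interval with any other class. Plasmacytoid dendritic-like cells came next for Hsp90b1 at 918 and 805 CPM, while for Pdia4 their 84.5 CPM in the WT library overlapped several other classes.

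Hspa5 and Calr had smaller ratios than those, and their size depended on the scale. Hspa5 encodes BiP, the ER HSP70 that also holds the sensors inactive (chromosome 2, positions 34771970 to 34777547). Plasma-like cells had 1167 CPM (1093 to 1244) in the WT library, and 664 CPM (613 to 719) in the library labelled Otud1-/-, against 542 and 537 CPM in the rest. They were first of 16 classes in the WT library. In the library labelled Otud1-/- they were 6th of 11, inside a run from NK-like (727 CPM) to dendritic-like cells (639 CPM) in which neighbouring intervals overlapped. Calr encodes calreticulin, a chaperone of glycoproteins (chromosome 8, positions 84841850 to 84846934). Plasma-like cells had 692 CPM (636 to 752) and 522 CPM (477 to 571), 1.58 and 1.28 times the rest. Without immunoglobulin UMIs in the totals Hspa5 was 3.79 and 2.65 times and Calr 2.78 and 2.74 times the rest, against 14.0 and 16.3 times for Hsp90b1. Without doublet removal Hspa5 in the library labelled Otud1-/- turned from a log2 ratio of 0.31 to -0.34 (-0.42 to -0.25). All of these 3 genes carry an ERSE match.

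Herpud1 and Dnajb9 serve the removal of misfolded proteins. Herpud1 encodes an ER membrane protein of the degradation complex (chromosome 8, positions 94386438 to 94395377). Its level was 482 CPM (435 to 533) and 566 CPM (518 to 617) in plasma-like cells, 3.62 and 3.74 times the rest. Plasmacytoid dendritic-like cells were next at 337 and 453 CPM, below plasma-like cells without overlap in both libraries. Dnajb9, the BiP co-chaperone ERdj4 (chromosome 12, positions 44205559 to 44210326), had 119 CPM (96.0 to 145) and 84.6 CPM (66.8 to 106) in plasma-like cells, 2.03 and 1.59 times the rest. Its order between classes was not resolved: mast cell/basophil-like cells had 127 CPM in the WT library, and plasmacytoid dendritic-like cells had 92.5 CPM in the other.

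The integrated stress response genes stood at or below the other cells in plasma-like cells on the scale of all UMIs, and the direction of Atf4 and Ddit3 turned once immunoglobulin UMIs were left out of the totals. Atf4, the translation-controlled transcription factor (chromosome 15, positions 80255184 to 80257541), had 217 CPM (186 to 252) and 165 CPM (140 to 193), 0.991 and 0.761 times the rest. Ddit3, which encodes the death-associated factor CHOP (chromosome 10, positions 127290774 to 127296288), had 37.5 CPM (25.3 to 53.5) and 32.5 CPM (21.9 to 46.4). Ppp1r15a, whose product GADD34 directs dephosphorylation of eIF2α (chromosome 7, positions 45522916 to 45526268), had 112 CPM (90.4 to 138) and 53.1 CPM (39.3 to 70.2). That was 0.527 times the rest (0.423 to 0.648) in the WT library and 0.288 times (0.211 to 0.378) in the other, the lowest ratio of the 10 genes in both libraries. Without immunoglobulin UMIs in the totals, Atf4 was 1.74 and 1.63 times the rest, Ddit3 1.62 and 1.46 times, and Ppp1r15a 0.927 and 0.614 times. Ppp1r15a thus kept the lowest ratio on that scale too. Ddit3 overlaps Mars and Gm4189 on the other strand and a second Ddit3 model on its own strand. The second Ddit3 entry held 0 UMIs, and how reads at that locus were assigned was not tested.

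**Figure D1:**
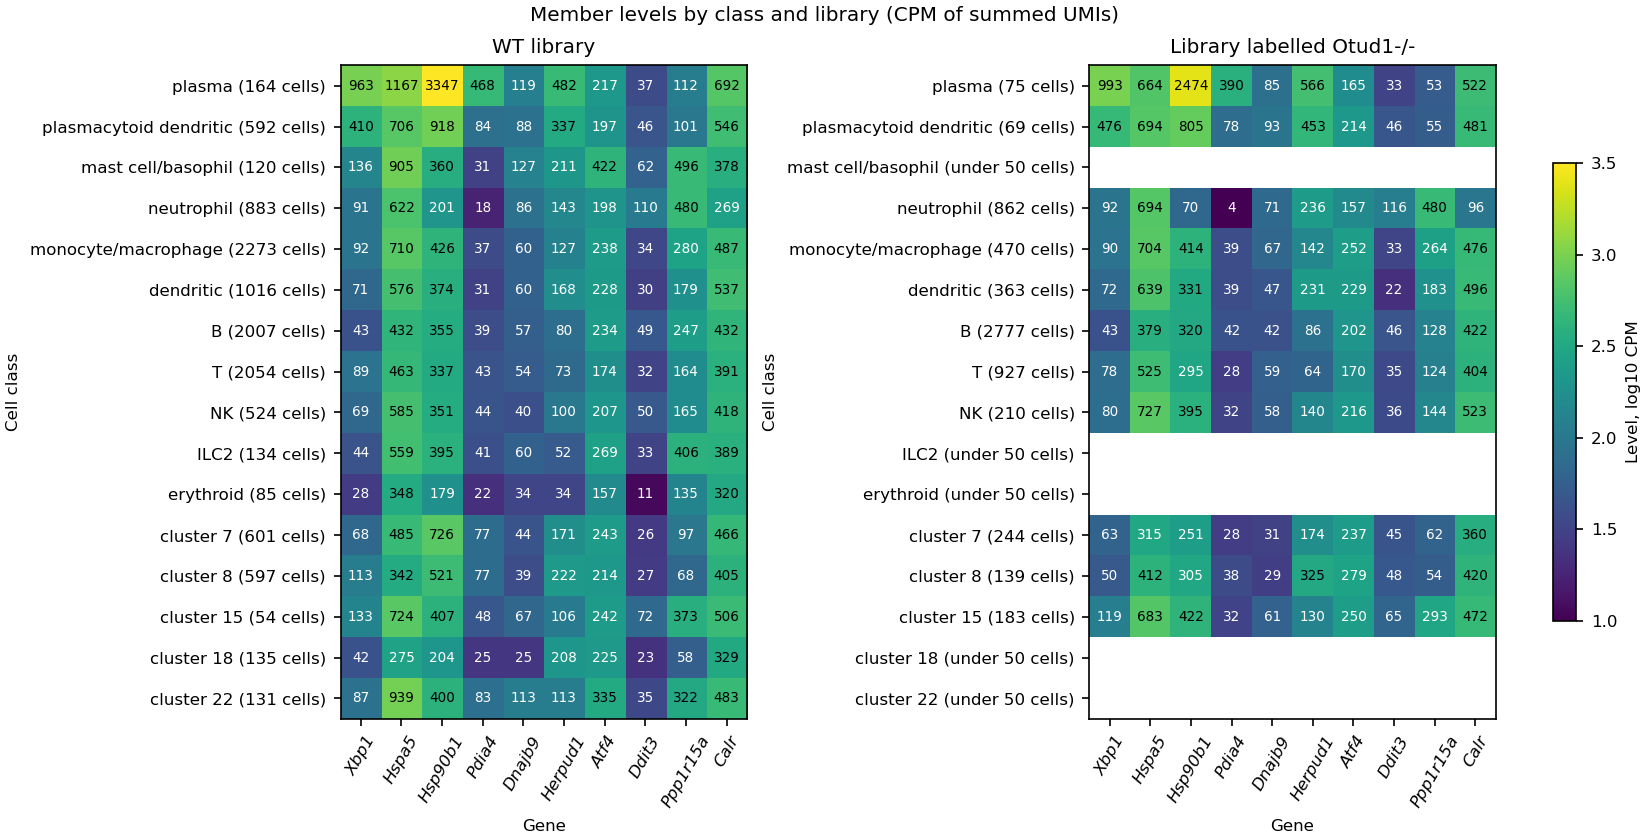
Heat maps of the level of each of the 10 genes (columns) by cell class (lines of the map), with the CPM of the summed UMIs printed in each field and its log10 as colour, for the WT library and the library labelled Otud1-/-. Classes under 50 cells are blank. Plasma-like cells lead for Xbp1 (963 and 993 CPM), Hsp90b1 (3347 and 2474 CPM) and Pdia4 (468 and 390 CPM), and neutrophil-like cells lead for Ddit3 (110 and 116 CPM).

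Over all members, 7 of 10 were at least 1.5-fold higher in plasma-like cells than in the rest of the WT library, and 1 was at least 1.5-fold lower. Of the 4598 genes measured in that comparison, 6.05% were as much higher and 75.2% as much lower. In the library labelled Otud1-/- the counts were 5 higher and 1 lower of 10, beside 5.7% higher and 81.8% lower of all genes. The members' median log2 ratio was 1.07 and 0.51, and that of all genes -1.10 and -1.39. With immunoglobulin UMIs left out of the totals, 9 and 8 members were higher and 0 and 1 lower, with medians of 1.88 and 1.61 beside -0.27 and -0.25 for all genes. On that scale 16.3% of all genes were higher and 33.5% lower in the WT library, and 18.4% higher and 33.7% lower in the other. Ppp1r15a was the member that stayed lower in the library labelled Otud1-/-.

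Most of the other ER genes measured were also higher in plasma-like cells. Of the ER chaperones and folding enzymes other than the members, 14 of 21 measured were higher in plasma-like cells and 2 lower in the WT library, and 14 of 21 were higher and 3 lower in the other. Fkbp11, a prolyl isomerase of secretory cells, had 352 CPM against 9.69 CPM in the WT rest and 279.7 CPM against 2.22 CPM in the other library. Txndc5, a disulfide isomerase, stood 9.89 and 16.1 times above the rest, and the secreted factor Creld2 8.83 and 13.8 times. Of the ER-associated degradation genes 11 of 16 and 9 of 15 were higher, led by Derl3, a Derlin family protein, at 211 CPM against 5.96 CPM and 169 CPM against 2.95 CPM. The mannosidase-like lectins Edem2 (8.49 and 13.3 times) and Edem1 (6.88 and 7.07 times) came after it.

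The integrated stress response lists depended on the scale. Of all genes, 6.05% were higher and 75.2% lower in WT plasma-like cells, and 5.7% and 81.8% in the other library. Without immunoglobulin UMIs these shares were 16.3% and 33.5%, and 18.4% and 33.7%. Of the ATF4 and CHOP targets, 4 of 12 were higher and 3 lower in WT plasma-like cells, and 5 of 13 were higher and 4 lower in the other library. Without immunoglobulin UMIs in the totals, 11 of 15 and 12 of 17 were higher and 2 and 3 lower. Chac1, which degrades glutathione, was higher at 91.2 and 86.7 CPM, 24.8 and 21.5 times the rest. Phgdh, of serine synthesis, was 2.99 and 2.11 times the rest, and the amino acid transporter Slc7a5 2.62 and 2.67 times. Of the eIF2α kinases and regulators, 2 of 3 and 3 of 4 measured genes were lower and 0 higher. The share of lower genes was not above that of all genes. Without immunoglobulin UMIs 0 of 4 and 0 of 6 were lower and 0 and 2 higher. Among the sensors and their proteases 2 of 6 and 1 of 5 were higher, with Creb3l2, an ER-bound transcription factor of secretory cells, at 7.27 and 8.42 times the rest. Without immunoglobulin UMIs 6 of 7 and 7 of 7 sensors were higher. Heat shock genes outside the ER (cytosolic ones and the mitochondrial Hspd1 and Hspe1) were lower in 6 of 6 cases in both libraries. Their median log2 ratios were -1.10 and -1.87, beside -1.10 and -1.39 for all genes. Without immunoglobulin UMIs they were lower in 1 of 6 and 5 of 7 cases. The ER chaperones were higher in 19 of 22 cases in both libraries on that scale, and the degradation genes in 16 of 18 and 13 of 17.

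Plasmacytoid dendritic-like cells, a further secretory immune cell type that releases interferon, had a milder form of the plasma pattern. In these 592 WT and 69 other cells, 5 members were higher and 1 lower in each library, against backgrounds of 16.1% higher and 16.5% lower in the WT library and 20% higher and 20.4% lower in the other. The 5 higher members were Xbp1 (4.07 and 5.11 times the rest), Herpud1 (2.56 and 2.90 times), Hsp90b1 (1.97 and 2.18 times), Pdia4 (1.57 and 1.81 times) and Dnajb9 (1.51 and 1.74 times). Ppp1r15a was the lower member, at 0.469 and 0.299 times. The other ER chaperones were higher in 11 of 20 and 15 of 20 cases. In the library labelled Otud1-/- Jchain in these cells was at 11.2% of its plasma-like level, against 0.523% in the WT library. RNA of plasma-like cells in that proportion could carry at most 23.5% and 1.23% of their Xbp1. For Hsp90b1 the limits were 34.5% and 1.91%, and for Pdia4 56.2% and 2.90%. For Herpud1 they were 14.1% and 0.748%, and for Dnajb9 10.3% and 0.703%. The Jchain level in these cells was 3865 CPM in the 69 cells of that library and 145 CPM in the 592 WT cells. The WT value lay between those of B-like (54.7 CPM) and T-like cells (298 CPM). Plasmacytoid dendritic cells are known to express Jchain themselves, and the part of plasma-cell RNA in the values was not tested.

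In neutrophil-like cells CHOP and GADD34 transcripts were high and most ER chaperones low, while Hspa5 was at 1.13 and 1.32 times the rest. Ddit3 had 110 CPM (95.9 to 126, 211 UMIs) in the 883 WT cells and 116 CPM (105 to 128, 371 UMIs) in the 862 cells of the other library. That was a log2 ratio of 1.58 (1.38 to 1.81) and 1.49 (1.34 to 1.67) over the rest, and the first of all classes in both libraries. In the WT library its interval met that of cluster 15 (71.9 CPM), an unnamed cluster led by the interferon-induced genes Gbp2, Cfb and Cxcl9. Ppp1r15a was at 480 CPM (449 to 512) and 480 CPM (456 to 504), 2.45 and 3.08 times the rest. It ranked first in the library labelled Otud1-/- and second, within overlapping intervals, to mast cell/basophil-like cells (496 CPM) in the WT library.

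The chaperones Hsp90b1, Calr and Pdia4 were the low members in neutrophil-like cells. Hsp90b1 had 201 CPM (182 to 222, 385 UMIs) in the WT library and 70.1 CPM (61.2 to 79.9, 224 UMIs) in the other, 0.401 and 0.174 times the rest. Calr had 269 CPM (246 to 293) and 96.3 CPM (85.9 to 108), 0.591 and 0.220 times. Pdia4 had 17.8 CPM from 34 UMIs and 4.07 CPM from 13 UMIs. In the library labelled Otud1-/- each of the 3 was lowest in neutrophil-like cells, with no overlap with another class. Apart from Herpud1 in the library labelled Otud1-/-, the remaining members were within 1.5-fold of the other cells. Hspa5 was at 622 and 694 CPM (1.13 and 1.32 times the rest) and Xbp1 at 90.9 and 91.9 CPM (0.788 and 0.916 times). Atf4 was at 198 and 157 CPM (0.898 and 0.712 times) and Dnajb9 at 86.2 and 71.0 CPM (1.48 and 1.36 times). Dnajb9 stood above the rest beyond counting error in both libraries (1.26 to 1.75 and 1.18 to 1.56). Herpud1 was at 143 CPM in the WT library and at 236 CPM in the other, 1.01 and 1.53 times the rest.

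By count, 2 members were higher and 3 lower of 10 in WT neutrophil-like cells, and 3 were higher and 3 lower in the other library. The background was 16.4% higher and 37.7% lower of 5235 genes in the WT library, and 24.7% higher and 51% lower of 4844 genes in the other. The share of lower members was below that of all genes in both libraries. The members' median log2 ratio was -0.07 and 0.14, and that of all genes -0.39 and -0.63. ER chaperones beside the members were lower in 13 of 20 and 16 of 19 cases, with medians of -0.97 and -2.07 on the log2 scale, and 4 of 15 and 8 of 14 degradation genes were lower. Of the ATF4 and CHOP targets, 4 of 11 and 5 of 11 were higher, and 2 and 4 lower. Slc7a11, the cystine transporter, had 1461 and 2936 CPM, 17.3 and 21.0 times the rest, and Sesn2, a stress-induced regulator of growth signalling, was 4.11 and 8.43 times the rest.

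Early genes that tissue dissociation is known to induce were also higher in neutrophil-like cells, in 12 and 11 of 14 cases, with medians of 1.16 and 1.31. Ddit3 and Ppp1r15a respond to many stresses, and the part of cell isolation in their levels was not tested. Of the 10 listed heat shock genes outside the ER (cytosolic ones and the mitochondrial Hspd1 and Hspe1), 6 were measured in each library. They were lower in 5 and 6 of 6 cases, beside 37.7% and 51% of all genes. Neutrophil-like cells held 3 clusters that differed in the members. In the WT library Ddit3 was at 161 CPM in cluster 3 (Stfa2l1, Cxcr2), 85.6 CPM in cluster 12 (Mmp9, Retnlg) and 36.1 CPM in cluster 23 (Ngp, Camp), whose leading genes are granule genes of immature neutrophils. Ppp1r15a had the same order with 704, 348 and 202 CPM. Hsp90b1 and Calr had the opposite order, at 122, 236 and 325 CPM and at 162, 346 and 367 CPM.

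**Figure D2:**
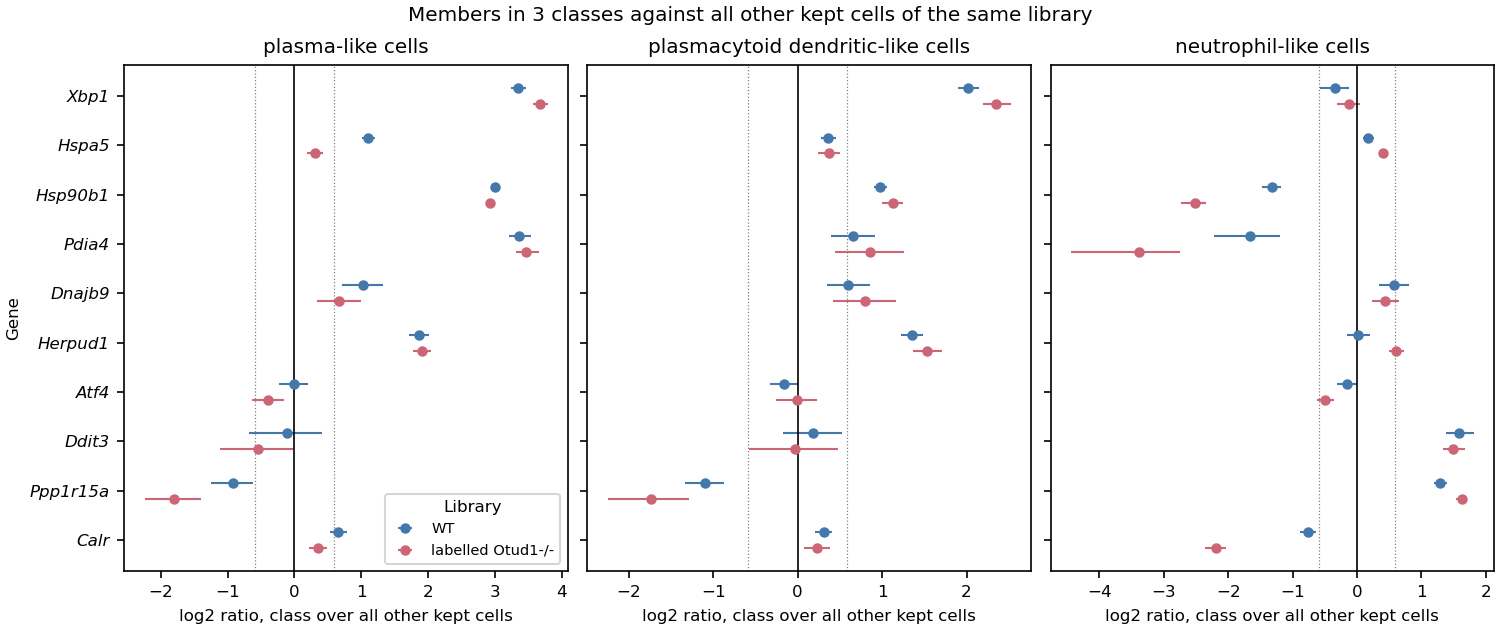
Log2 ratio of each of the 10 genes in plasma-like, plasmacytoid dendritic-like and neutrophil-like cells over all other kept cells of the same library, with 95% counting intervals and dotted lines at 1.5-fold either way. Xbp1, Hsp90b1, Pdia4 and Herpud1 lie to the right in plasma-like cells of both libraries, whereas in neutrophil-like cells Ddit3 and Ppp1r15a lie to the right and Hsp90b1, Calr and Pdia4 to the left.

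RNA of other cells was measurable in the neutrophil-like class and bears on its low members. The 10 B cell markers outside the immunoglobulin genes all had UMIs there, and their summed level was 1445 CPM in the WT library, and 357 CPM in the library labelled Otud1-/-, 27.6% and 6.18% of that in B-like cells. The T cell markers summed to 623 and 73.8 CPM, 11.7% and 1.20% of the level in T-like cells. If all marker RNA of B, T, NK and plasma-like cells came with those cells' mean profile, it would carry up to 169 of the 201 CPM of Hsp90b1 and up to 176 of the 269 CPM of Calr in the WT library. In the other library it would carry up to 29.8 of 70.1 CPM and up to 32.9 of 96.3 CPM. For Ddit3 the limits were 18.3 of 110 CPM and 3.38 of 116 CPM, and for Ppp1r15a 90.3 of 480 CPM and 9.70 of 480 CPM. Monocyte/macrophage markers, some of which neutrophils share, summed to 3225 and 2272 CPM and were not part of these limits.

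Among the other classes, mast cell/basophil-like cells of the WT library (120 cells) ranked high for some members and low for others. Atf4 was at 422 CPM (342 to 515), the first of 16 classes, with an interval that met that of cluster 22, led by Il22, at 335 CPM. Hspa5 was at 905 CPM (786 to 1037) and Ppp1r15a at 496 CPM (409 to 597). The same class ranked 10th of 16 for Hsp90b1 (360 CPM) and 13th for Pdia4 (30.8 CPM) and Calr (378 CPM). The library labelled Otud1-/- had 21 such cells, under the 50 cells set for a level. Over the classes Atf4 ranged from 157 to 422 CPM in the WT library and from 157 to 279 CPM in the other. Most neighbouring intervals overlapped.

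Levels of some members, but not of all, moved together over the 27 sums of a class and a library with at least 50 cells. These sums share libraries and depth, so correlations are given as a description. Among the members the closest pair was Hsp90b1 and Pdia4 (Pearson r of log2 CPM 0.96), then Hspa5 and Dnajb9 (0.88), and Xbp1 with Hsp90b1 reached 0.79. Ppp1r15a ran against Pdia4 (-0.45) and Herpud1 (-0.43), and Ddit3 against Calr (-0.40). The highest value of Atf4 with another member was 0.31, with Calr. Among 5306 other genes, those most like Xbp1 were H13 (0.91), an ER signal peptide peptidase, Kdelr1 (0.90), which returns escaped ER proteins, and Ergic1 (0.88). The genes most like Ppp1r15a were Klf6, Kdm6b and Junb (each 0.91), all of them inducible regulators, and those most like Ddit3 were Dedd2 (0.86), Tmcc1 and Ypel3 (both 0.84). For Hspa5 the nearest genes were Itm2b (0.83), Slc3a2 and B2m (both 0.82), and for Atf4 they were Snx1 (0.74), Rcn2 (0.71) and Man2a1 (0.69).

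Single plasma-like cells varied widely in these transcripts. Xbp1 had 0 to 64 UMIs per cell with a median of 2 in the WT library, and 0 to 58 with a median of 6 in the other. Hsp90b1 had a median of 8 UMIs in both libraries and a maximum of 193 and 235. A total of 8 of 164 WT cells and 18 of 75 other cells had no Hsp90b1 UMI. Depth per cell ran from 791 to 28617 UMIs and from 536 to 52060 UMIs, so the cells were thinned to 1000 UMIs, which left out 8 and 23 shallower cells. Then 50.6% (42.5% to 58.7%, 79 of 156 cells) and 51.9% (37.6% to 66.0%, 27 of 52 cells) of plasma-like cells had an Xbp1 UMI, beside 79.3% and 72.0% unthinned. In neutrophil-like cells the thinned shares were 8.52% and 8.99%, and in B-like cells 4.64% and 4.19%.

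Within plasma-like cells, Xbp1, Hspa5 and Herpud1 were higher where more of the UMIs came from immunoglobulin genes. This share ran from 2.99% to 74.6% in the WT library and from 4.66% to 75.2% in the other. Each library was split at its median, into 82 and 82 WT cells and 38 and 37 other cells, and levels were taken as CPM of the UMIs outside the immunoglobulin genes. Xbp1 was at 961 CPM in the WT cells with a low share and at 2559 CPM in those with a high share, a log2 ratio of 1.41 (1.19 to 1.64). In the other library the log2 ratio was 0.76 (0.50 to 1.04). Hspa5 had 0.98 and 0.76, and Herpud1 0.94 and 0.54. Dnajb9 had 1.29 and 0.41, the latter with an interval that includes 0 (-0.44 to 1.36).

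Hsp90b1 had log2 ratios of 0.63 and 0.12, Pdia4 of 0.39 and 0.24, and Calr of 0.42 and -0.25. In the library labelled Otud1-/- their intervals all include 0 (-0.03 to 0.26, -0.14 to 0.64 and -0.55 to 0.05). Atf4 had 0.55 and 0.07 (-0.50 to 0.67), the latter with an interval that includes 0. Ddit3 had 0.56 (-0.56 to 1.73) and 0.22 (-1.11 to 1.80). Ppp1r15a had -0.08 (-0.71 to 0.55) in the WT library and 1.35 (0.03 to 3.05, from 5 and 44 UMIs) in the library labelled Otud1-/-. The split compares cells of 1 library with each other and was not tested. Its parts were not matched for depth. In the library labelled Otud1-/- Calr had 124 UMIs at 1288 CPM in the low part and 358 UMIs at 1082 CPM in the high part. The high part of that library thus held more UMIs. In all, 21 WT and 14 other plasma-like cells carried the proliferation gene Mki67. Immunoglobulin share, depth and cycling cannot be told apart here.

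**Figure D3:**
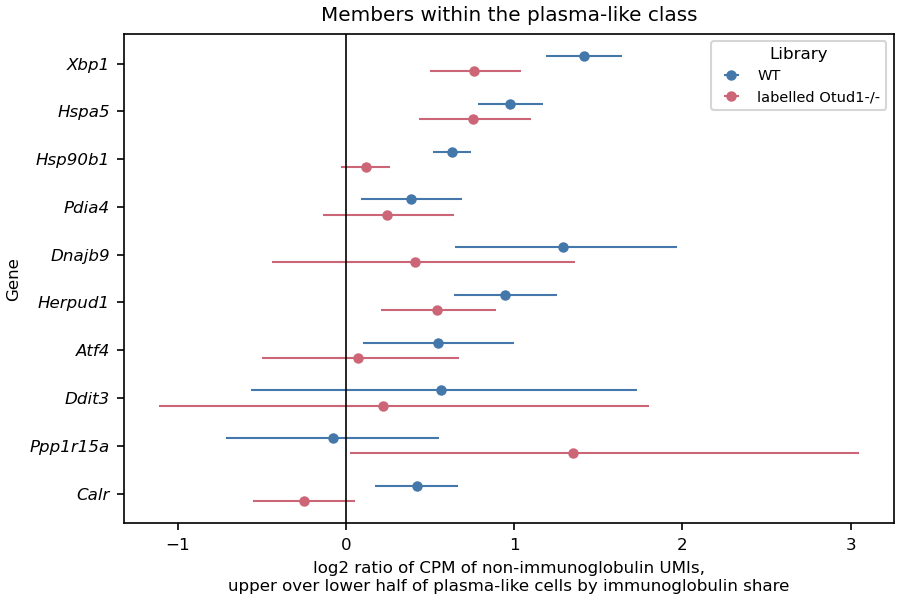
Log2 ratio of each of the 10 genes between plasma-like cells with a high and a low share of immunoglobulin UMIs, from CPM of the UMIs outside the immunoglobulin genes, with 95% counting intervals, for each library. Xbp1 (1.41 and 0.76) and Hspa5 (0.98 and 0.76) lie above 0 in both libraries. The points of Calr (0.42 and -0.25) and Ppp1r15a (-0.08 and 1.35) differ in sign between the libraries. The intervals of Calr in the library labelled Otud1-/- and of Ppp1r15a in the WT library include 0, so a difference in sign is not resolved.

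Between the libraries, 3 members differed by at least 1.5-fold in neutrophil-like cells. The study's title names protein transport in neutrophils, which gives this class its place in the comparison. Hsp90b1 was lower in the library labelled Otud1-/-, at 70.1 CPM against 201 CPM, a log2 ratio of -1.52 (-1.77 to -1.28). Calr was lower at 96.3 against 269 CPM, a log2 ratio of -1.47 (-1.69 to -1.27). Herpud1 was higher at 236 CPM (219 to 253, 754 UMIs) against 143 CPM (126 to 161, 273 UMIs), a log2 ratio of 0.72 (0.52 to 0.93). The intervals of the libraries did not overlap for these 3 genes. Ppp1r15a (0.00), Xbp1 (0.02), Ddit3 (0.07) and Hspa5 (0.16) stood at nearly the same level over the whole class, and Dnajb9 (-0.28) and Atf4 (-0.33) were below the 1.5-fold limit.

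Thus 1 of the 9 members measured was at least 1.5-fold higher and 2 were at least 1.5-fold lower, beside 16.3% higher and 32.3% lower of 4258 genes. The share of members past the limit was not above these backgrounds. The median log2 ratio of the members was 0.00 and that of all genes -0.18. Scaling by trimmed means (TMM) moved the all-gene median to 0.40 and the members' median to 0.56, and Hsp90b1 and Calr stayed lower by at least 1.5-fold. With TMM 3 members were higher and 2 lower, beside 41.3% higher and 16% lower of all genes. With median-of-ratios factors 5 were higher and 2 lower, beside 47.7% and 13.3%. Of the other ER chaperones 12 of 15 were lower and 1 was higher, the disulfide isomerase P4hb (105 to 173 CPM). Manf, a secreted ER stress factor, was lower at 29.7 against 82.0 CPM. Of the ATF4 and CHOP targets 3 of 8 were higher, among them Slc7a11 (log2 ratio 1.01) and Sesn2 (1.20), and 1 was lower, the serine tRNA ligase Sars (-1.17).

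Several features of the neutrophil-like class moved with this difference. The B and T marker RNA described above was higher in the WT class. The median mitochondrial share was 3.04% in the WT class and 0.294% in the other, and the summed neutrophil markers were at 70849 and 116993 CPM. Cluster 3 supplied 337 of 883 WT cells and 821 of 862 other cells. In cluster 3 alone Hsp90b1 was lower by a log2 ratio of -1.06 and Calr by -0.90, with Herpud1 at 0.57, so 0 of 9 members were higher and 2 lower, beside 7.5% and 17.3% of all genes. Ppp1r15a there was at 704 and 512 CPM (-0.46, -0.60 to -0.32) and Ddit3 at 161 and 120 CPM (-0.42, -0.71 to -0.13), and the members' median was -0.40. In the neutrophil-like cells with no B or T marker UMI (163 WT and 496 other cells), a restriction added after the values were seen, Hsp90b1 was at 119 and 45.2 CPM (log2 ratio -1.39, -1.96 to -0.82) and Calr at 183 and 70.3 CPM (-1.37, -1.83 to -0.92). Herpud1 was under the limit there, at 177 and 253 CPM (0.51, 0.13 to 0.91). In the male cells alone, taken as those that held Y-linked but no Xist UMIs, the log2 ratio was -1.33 for Hsp90b1, -1.38 for Calr and 0.81 for Herpud1.

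In plasma-like cells 2 of 10 members were at least 1.5-fold lower in the library labelled Otud1-/- and 0 higher, beside 22% lower and 4.11% higher of 2092 genes. Hspa5 was lower at 664 against 1167 CPM, a log2 ratio of -0.81 (-0.96 to -0.66). Ppp1r15a was lower at 53.1 against 112 CPM, a log2 ratio of -1.07 (-1.61 to -0.56). Hsp90b1 (-0.44), Calr (-0.40), Atf4 (-0.40), Dnajb9 (-0.49), Pdia4 (-0.26) and Ddit3 (-0.20) were below the limit, as were Herpud1 (0.23) and Xbp1 (0.04). The members' median was -0.40 and that of all genes -0.25. Immunoglobulin UMIs took a larger share of the total in the library labelled Otud1-/-, and without them the log2 ratio of Hspa5 was -0.53, under the limit. Atf3, an ATF4-induced factor that is also in the list of dissociation genes, was higher at 56.4 against 23.7 CPM (52 and 19 UMIs). Of the measured dissociation genes, 6 of 11 were lower.

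**Figure D4:**
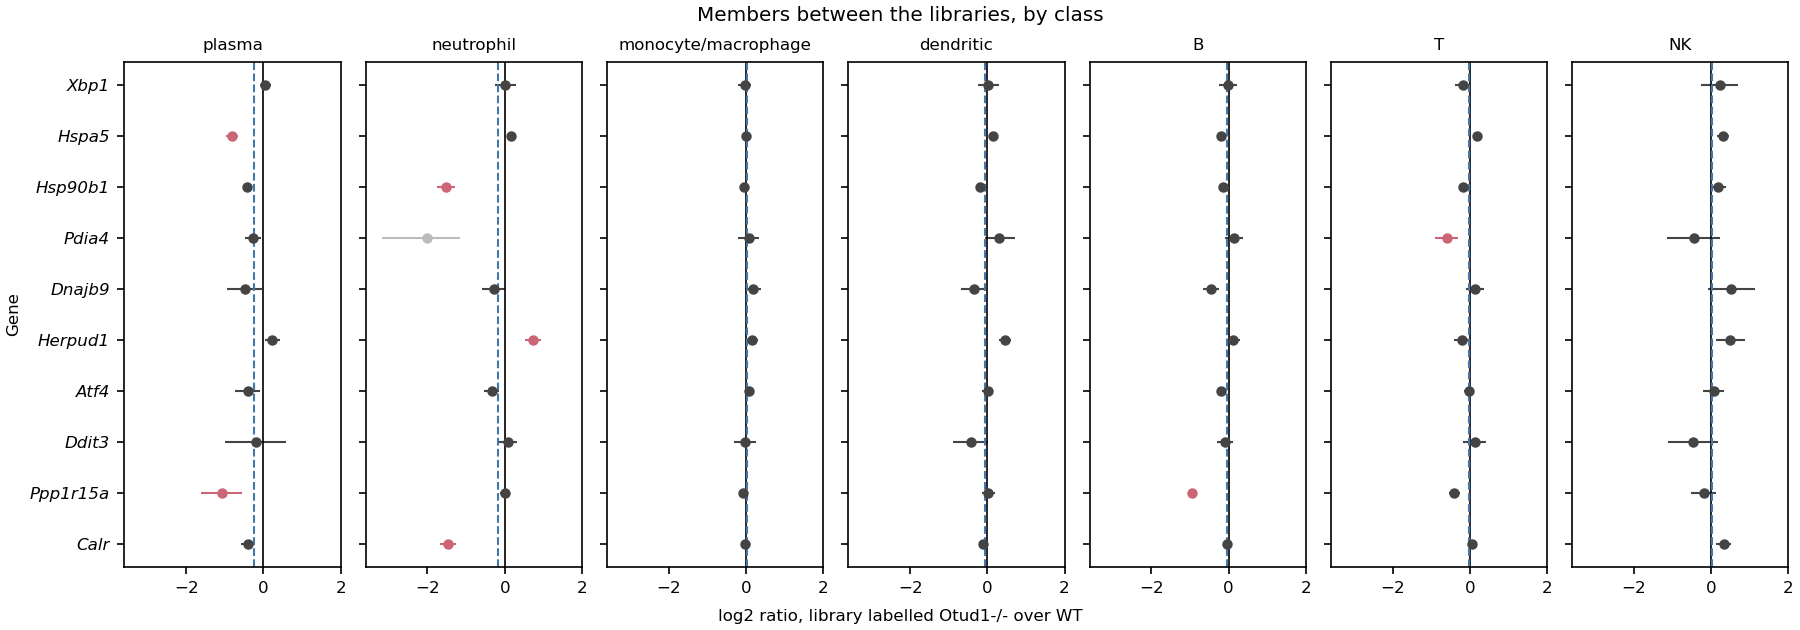
Log2 ratio of each of the 10 genes, library labelled Otud1-/- over WT library, in 7 cell classes, with 95% counting intervals. Red points are at least 1.5-fold apart, grey ones were not measured, and the dashed line is the median of all genes measured in the class. On the lower side stand Hsp90b1 (-1.52) and Calr (-1.47) in neutrophil-like cells, Hspa5 (-0.81) and Ppp1r15a (-1.07) in plasma-like, Ppp1r15a (-0.95) in B-like and Pdia4 (-0.60) in T-like cells, and on the higher side Herpud1 in neutrophil-like cells (0.72).

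B-like cells (2007 and 2777 cells) differed in a single member. Ppp1r15a stood at 247 CPM in the WT library and at 128 CPM in the other, a log2 ratio of -0.95 (-1.06 to -0.84). Of 5131 genes measured in B-like cells, 1.95% were as much lower and 0.799% as much higher. The share of B-like cells with a Ppp1r15a UMI after thinning was 21.5% and 12.3%. Neutrophil and monocyte/macrophage RNA, by its markers, could carry up to 23.7 of the 247 CPM and up to 14.7 of the 128 CPM. Of 12 measured dissociation genes 5 were lower and 0 higher in the same class, and the part of cell handling in the Ppp1r15a difference was not tested.

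Other classes showed small differences. In T-like cells Pdia4 was lower, at 28.4 against 43.4 CPM, a log2 ratio of -0.60 (-0.91 to -0.32), just past the limit, beside 3.88% lower and 0.813% higher of all genes. The difference was under the limit in 8 of the alternatives run, with log2 ratios down to -0.16 in the male cells alone. Jchain in T-like cells was at 298 CPM in the WT library, against 25.2 CPM in the other, and plasma-like RNA in that proportion could carry 5.03 of the 43.4 CPM of Pdia4 and 0.286 of the 28.4 CPM. In NK-like cells 0 members passed the limit in either direction, where 6.65% of all genes were higher and 10.5% lower. In dendritic-like cells it was again 0 members, beside 1.84% higher and 6.91% lower of all genes. In monocyte/macrophage-like cells 0 members passed it as well, beside 3.45% higher and 3.12% lower. Xbp1 in monocyte/macrophage-like cells, for instance, was at 91.8 and 89.7 CPM.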

How the data were processed

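Both libraries are 10x Genomics 3′ single-cell libraries. The deposited values are raw UMI counts per gene and barcode, per the file headers. Per the submitters' processing notes the authors used Cell Ranger 5.0.0 and Seurat 3.2.3 with the mm10 build, while the file headers name Cell Ranger 6.0.1. Total depth was 44878537 UMIs over 13267 barcodes (WT) and 44083735 UMIs over 8109 barcodes (labelled Otud1-/-).

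A barcode counted as a cell from 200 detected genes on and up to a mitochondrial share of 15%. The cells with the highest doublet scores were removed at 0.8% per 1000 barcodes (1355 and 450 cells), after an automatic threshold had marked 0 and 2 cells. Doublet scores came from 2 simulated doublets per cell. The libraries were clustered together in scanpy 1.11.5 (2000 variable genes, 30 principal components, 20 neighbours, Leiden resolution 1) without the listed genes, Otud1, sex-linked, immunoglobulin and T cell receptor genes among the variable genes. Clusters were named from 21 marker sets, given at least 3 markers among the top 50 genes. Class names are rebuilt and may differ from the study's.

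UMIs were summed per class and library and scaled to CPM. A gene was measured at a mean of at least 20 CPM and at least 30 UMIs in the library with more. Ratios between libraries used a prior of 0.5 CPM, and a difference was called at 1.5-fold or more. Intervals are exact (Poisson for levels, conditional binomial for ratios, Clopper-Pearson for shares). The calculation was checked on simulated counts. Other settings were TMM (edgeR 4.0.16) and median-of-ratios factors, a 5% mitochondrial limit, no doublet removal, resolution 2, totals without immunoglobulin genes, thinning, per-cell means, and Y-linked cells alone. The members, 7 further gene lists and markers were chosen with earlier results of these data known. All 10 members are named. Of each other list the text may name the 3 genes highest in plasma-like cells over the rest and the 2 highest and 2 lowest between libraries in plasma-like and neutrophil-like cells, and for likeness the 3 closest genes of 5 members.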

Additional observations from a re-analysis of the deposited data

Results flagged for a closer look

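The ratio between the libraries had opposite directions in different classes for 2 members. Hspa5 was higher in NK-like cells of the library labelled Otud1-/- (log2 ratio 0.31) and lower in its plasma-like cells (-0.81), a difference of 1.13. Calr was higher in NK-like cells (0.32) and lower in neutrophil-like cells (-1.47), a difference of 1.80. With 1 library per genotype the difference was not tested in either case, and the NK-like values were under the 1.5-fold limit.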

How the results depend on the processing

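No paired analysis was possible because each genotype has a single library. Over all alternatives, 346 of the summary values stayed as reported or within 1.5 times for counts and 64 moved, and of the values of single genes 746 stayed, 223 moved and 1 reversed, counting as reversed a value past 1.5-fold that changed sign. The cause of these shifts was not tested, apart from the fewer cells or other totals that a setting uses. Depth and 1 library per genotype limit every comparison.

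Values under 1.5-fold changed sign too: in plasma-like over other cells of the library labelled Otud1-/-, Hspa5 went from 0.31 to -0.34 without doublet removal, and Atf4 from -0.39 to 0.70 and Ddit3 from -0.54 to 0.55 without immunoglobulin UMIs. The reversal was Dnajb9 in plasma-like over other cells of the library labelled Otud1-/-, from 0.67 to -0.20 without doublet removal, where the plasma-like class was larger (697 and 280 cells). In that setting 4 members in place of 7 were higher in WT plasma-like cells. In neutrophil-like cells the members' median between libraries was 0.56 with TMM and 0.68 with median-of-ratios factors in place of 0.00. The count of higher members there was 3 with TMM and 5 with median of ratios in place of 1, and 0 with the 5% mitochondrial limit, in cluster 3 alone and in cells with no B or T marker UMI. Hsp90b1 (-0.78 to -1.88) and Calr (-0.79 to -1.68) stayed at least 1.5-fold lower under all alternatives run, and a further member joined them in Y-linked cells and with no filter on low values.

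In plasma-like cells the count of lower members was 1 without doublet removal, with TMM and without immunoglobulin UMIs, 7 with per-cell means and 4 in Y-linked cells (25 and 32 cells), in place of 2. 1 member was higher after thinning. For plasma-like over other cells, the WT count lower became 0 without immunoglobulin UMIs and 2 in Y-linked cells, in place of 1. In the other library the count higher became 8 without immunoglobulin UMIs in place of 5, and the count lower became 2 with per-cell means, thinning, without each gene's highest cell, or with the listed genes among the variable genes.

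The T-like count of 1 lower member fell to 0 with the 5% mitochondrial limit, no doublet removal, TMM, median of ratios, per-cell means, without the highest cell, in Y-linked cells, and with listed genes variable. NK-like cells had 1 higher member without doublet removal, with TMM and after thinning, 3 in Y-linked cells, and 1 lower with per-cell means. Dendritic-like cells had 1 higher with TMM, median of ratios and in Y-linked cells, and 1 lower with the 5% limit and after thinning. The monocyte/macrophage-like median of -0.02 became -0.047 without doublet removal and -0.14 in Y-linked cells. The lower level of Ppp1r15a in B-like cells stayed past the limit under all alternatives run, from -0.84 to -0.97.

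The share of plasma-like cells with an Xbp1 UMI was 70.2% and 78.3% at 2000 UMIs and 79.3% and 72.0% unthinned, and that of neutrophil-like cells 13.3% and 13.9% at 2000 UMIs and 14.2% and 20.6% unthinned. List medians between libraries moved with the scaling. In plasma-like cells the kinase list stood at 0.30 (TMM) and 0.31 (no immunoglobulin), the chaperones at 0.14 and 0.15, and degradation at 0.10, 0.030 (median of ratios) and 0.11. In neutrophil-like cells TMM and median of ratios gave medians of 0.56 and 0.68 for the kinases, -0.44 and -0.31 for chaperones, 0.43 and 0.56 for degradation, and 0.54 and 0.66 for dissociation genes.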
